A study of Mus musculus with 4 samples.

Results

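The Hox genes are transcription factor genes that lie side by side in 4 clusters, Hoxa, Hoxb, Hoxc and Hoxd. Members were the protein-coding genes of GENCODE release M21 whose symbol is Hoxa, Hoxb, Hoxc or Hoxd followed by a number. That rule found 39 of 21938 protein-coding genes on the autosomes, X and Y. The 38 described here are 10 genes each of Hoxa and Hoxb and 9 each of Hoxc and Hoxd, and 1 gene was not analysed here. Open chromatin had been mapped by DNase-seq, in which the nuclease DNase I cuts accessible DNA in nuclei, in mouse acute myeloid leukemia (AML) cells. Their labels give the strain as C57BL/6J and call them differentiated in vitro, and name no treatment, time point or control. Both biological replicates were made of 2 technical replicate libraries each, and each has 1 deposited list of peaks and 1 of hotspots, so that no value below carries a replicate error. Values are given for both lists, or the list is named.

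HOX proteins give cells their position along the head-to-tail axis of the embryo, and the order of the genes along a cluster matches the order of the body regions they act in. Genes of the same number in different clusters are paralogues, numbered from anterior (1) to posterior (13), and all genes of a cluster described here are read in the same direction. In blood, Hoxa genes are active in stem and progenitor cells and fall silent as cells mature. Many myeloid leukemias keep posterior Hoxa genes and the cofactor gene Meis1 active, often under fusions of the methyltransferase MLL, whereas Polycomb complexes keep clusters silent elsewhere in the body.

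Peaks are windows of 150 bp with a score, a whole number the authors gave each peak. Hotspots are longer stretches, each with a −log10 q value between the floor set by a q of 0.05 and a ceiling of 100. After repeats were removed, replicate 1 had 236754 peaks with a median score of 74, and replicate 2 had 67559 with a median score of 35. Scores were compared only within a list, because their scaling is not given, and sequencing depth was unknown. A peak is called shared when a replicate 1 window overlaps a replicate 2 peak by at least 1 bp, and a promoter spans 1 kb on both sides of each annotated transcript start. Of all replicate 1 peaks, 26.1% were shared. Myeloid and leukocyte markers matched the AML label, with a shared promoter peak at 11 of 12 genes, including Spi1, Cebpa and Mpo. Of all protein-coding genes, 57.7% had one. None of 3 T cell markers (Cd3e, Cd3g, Cd4) had one. Of the marker lists for other cell types, 3 of 6 fibroblast, 1 of 4 endothelial, 1 of 4 epithelial and 1 of 3 erythroid genes had one, led by Col1a1 with scores of 132 and 64. Their part in the Hox values was not tested.

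Sequences of 4 peaks are shown because they rank first among the shared peaks of their cluster farther than 1 kb from the coding start of a Hox gene. They were read from the mm10 reference (GRCm38.p6), plus strand, and the coding start is the start of the coding transcript nearest its start codon. The first comes from the Hoxa7 promoter peak at chr6:52221816-52221965, of which the 111 bases at chr6:52221855-52221965 that lie outside exons are printed. The Hoxb peak, at chr11:96311596-96311745, lies between genes, 6596 bp from the coding start of Hoxb4. The Hoxc peak, at chr15:102987536-102987685, lies in an intron of the long annotated Hoxc5 gene, 2996 bp from the coding start of Hoxc8. The Hoxd peak, at chr2:74715876-74716025, lies in an exon of the antisense RNA gene Hoxd3os1, 10799 bp from the coding start of Hoxd8. Capitals mark exact matches, on either strand, to C/EBP (TTGCNNAA) or to GGNGGCGCT. The latter, here called the CTCF 3′ part, is a looser pattern that runs past the 3′ end of the CTCF motif counted below. The Hoxa sequence holds a C/EBP match on the minus strand, the Hoxc sequence a C/EBP match next to a CTCF 3′ part, the Hoxd sequence a CTCF 3′ part alone, and the Hoxb sequence neither.
Hoxa7 promoter peak: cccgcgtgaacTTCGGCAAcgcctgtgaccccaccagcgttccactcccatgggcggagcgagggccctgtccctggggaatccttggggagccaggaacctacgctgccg
Hoxb peak near Hoxb4: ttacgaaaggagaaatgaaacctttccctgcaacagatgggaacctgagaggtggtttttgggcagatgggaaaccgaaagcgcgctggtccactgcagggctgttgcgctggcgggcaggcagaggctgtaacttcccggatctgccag
Hoxc peak near Hoxc8: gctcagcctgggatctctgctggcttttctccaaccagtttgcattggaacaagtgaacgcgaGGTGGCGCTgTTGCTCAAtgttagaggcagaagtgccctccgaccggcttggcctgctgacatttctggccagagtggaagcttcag
Hoxd peak at Hoxd3os1: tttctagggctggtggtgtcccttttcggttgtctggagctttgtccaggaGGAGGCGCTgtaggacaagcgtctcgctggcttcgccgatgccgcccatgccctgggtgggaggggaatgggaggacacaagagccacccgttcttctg

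The clusters also carry microRNA genes, of which the mature 5′ arms are printed with the seed (bases 2 to 8) in capitals, from RefSeq (GRCm38.p6). They fall into 3 seed groups. The miR-196 group lies beside the group 9 genes, and its seed is known to pair with Hox messages. The miR-10 group lies beside the group 4 genes, and miR-615 lies within the Hoxc5 gene.
mmu-miR-196b-5p: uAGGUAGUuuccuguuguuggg
mmu-miR-196a-5p: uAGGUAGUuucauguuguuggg
mmu-miR-10a-5p: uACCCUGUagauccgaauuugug
mmu-miR-10b-5p: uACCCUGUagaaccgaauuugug
mmu-miR-615-5p: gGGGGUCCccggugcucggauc

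Few Hox promoters were open in both replicates, although most had a peak in the longer list. A shared promoter peak was found at 11 of 38 Hox genes (28.9%), against 57.7% of all protein-coding genes. In the replicate 1 list 30 of 38 Hox genes (78.9%) had a promoter peak, against 70.5% of all genes, and in the replicate 2 list 12 of 38 (31.6%), against 58.3%. No promoter peak in either list was found at 8 Hox genes. Hotspots come from the same libraries as the peaks, so their similar counts are no independent check. Of the Hox promoters, 12 were touched by hotspots of both lists (58.4% of all genes were). A hotspot of replicate 1 touched 30 (70.9% of all genes were). Promoters rich in CpG dinucleotides are usually open in most tissues, and 23 Hox genes have such a start. The limits were an observed to expected CpG of at least 0.6 and GC content of at least 50%. Both were taken within 500 bp of the 5′ end of the gene record. Other transcript starts, at which promoter peaks also count, were not measured for CpG. Of these 23, 6 (26.1%) had a shared promoter peak, against 87.8% of all genes with a CpG-rich start. The Hox promoters that were open in both lists had median scores of 136 and 62 in replicates 1 and 2. Over the 12658 genes with a shared promoter peak the medians were 145 and 75. The Hox medians were lower but lay between the quartiles of those genes, 135 to 148 and 53 to 89. Among the Hox values, 1 peak counts for both Hoxc5 and Hoxc10.

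**Figure D1:**
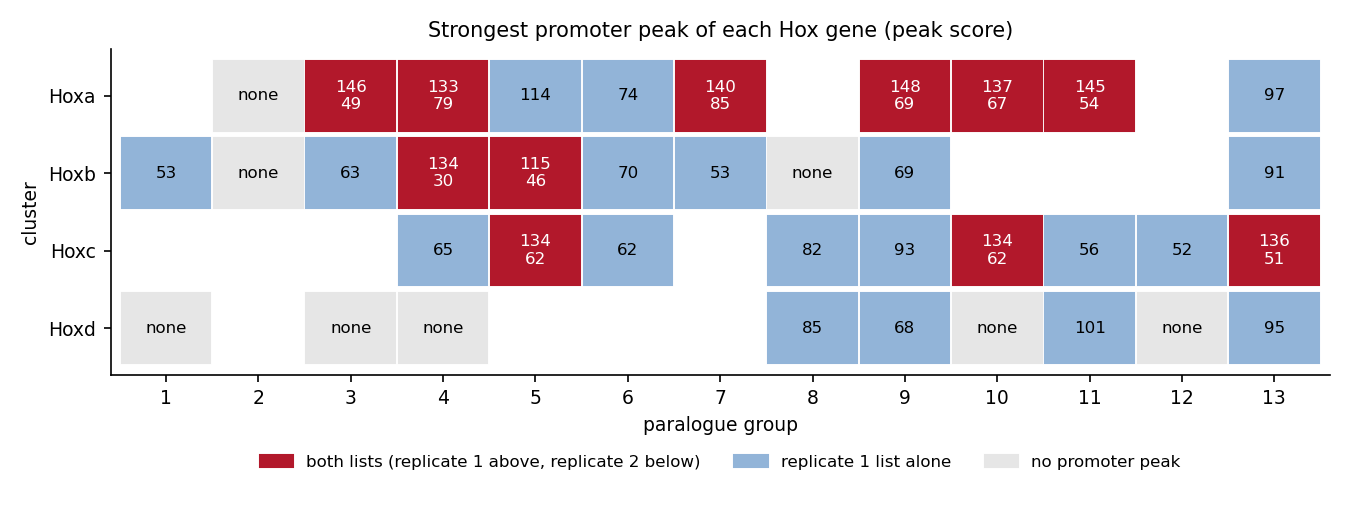
Promoter peak of each of the 38 Hox genes, with clusters as rows and paralogue groups 1 to 13 as columns. Red cells hold a shared peak (scores of replicate 1 above and replicate 2 below, for the shared promoter peak of highest mean rank), blue cells a peak in replicate 1 alone (its highest score), grey cells none, and blank cells no gene analysed. Red cells number 6 of 10 in Hoxa and 0 of 9 in Hoxd, and 57.7% of all protein-coding genes had a shared promoter peak.

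The Hoxa cluster, on chromosome 6 from 52162417 to 52260880 on the minus strand, had shared promoter peaks at 6 of its 10 genes. That share, 60%, was near the 57.7% of all protein-coding genes. Hoxa9, which drives myeloid leukemia in mice together with Meis1, had a peak 22 bp from its coding start that scored 148 in replicate 1 and 69 in replicate 2. The same pair of scores was found at a peak 119 bp from the coding start of Hoxa7, a known target of MLL fusions, whose highest-ranked promoter peak, at its upstream start, scored 140 and 85. Both genes had 9 promoter peaks in the replicate 1 list, more than any other Hox gene. Hoxa10, active in blood progenitors and in the uterus, scored 137 and 67 at an upstream start. The peak at the Hoxa10 coding start itself, with a score of 124, was in the replicate 1 list alone. Hoxa4, which helps pattern the neck vertebrae, scored 133 and 79, with the peak 218 bp from its only start. Hoxa11, needed for the forearm and the uterus, scored 145 and 54, with the peak 761 bp from its start, and a nearer peak, 101 bp away, scored 127 in replicate 1 alone.

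Hoxa3, needed for thymus and parathyroid, counts as open only through a distant transcript start. Its peak scored 146 and 49 and lay 29516 bp upstream of the Hoxa3 coding start, between the Hoxa6 and Hoxa7 coding starts and beside the start of the annotated gene Gm28308. No peak of either list lay within 1 kb of the Hoxa3 coding start. Hoxa5, which acts in lung and trunk, scored 114 in replicate 1 alone, and Hoxa6, a trunk gene, scored 74 there. Hoxa13, needed for digits and the urogenital tract, scored 97 in replicate 1 alone. Hoxa2, which patterns the hindbrain, had no promoter peak in either list. With Hoxa3 set aside, shared promoter peaks thus ran from Hoxa4 to Hoxa11 with gaps at Hoxa5 and Hoxa6. That of Hoxa10 lay at an upstream start alone. Hoxa13 at the posterior end had no shared one.

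The Hoxb cluster, on chromosome 11 from 96194316 to 96368256 on the plus strand, had shared promoter peaks at 2 of 10 genes. Hoxb4, which expands blood stem cells when overexpressed, scored 134 in replicate 1 and 30 in replicate 2. Hoxb5, used as a marker of long-term blood stem cells in mice, scored 115 and 46. Both replicate 2 scores stand below the 62 of the median open Hox promoter, and Hoxb4 below the replicate 2 list median of 35 as well. In replicate 1 alone the promoters of Hoxb1 (53), Hoxb3 (63), Hoxb6 (70), Hoxb7 (53), Hoxb9 (69) and Hoxb13 (91) had a peak, with the score in brackets. Hoxb1 shapes the facial nerve, and the others up to Hoxb9 pattern hindbrain and trunk. Of these only Hoxb13, a prostate and tail gene, scored above the list median of 74. Hoxb2, a hindbrain gene, and Hoxb8, whose forced expression holds myeloid progenitors immature, had no promoter peak in either list. The nearest shared peak to Hoxb8 lay 3774 bp from its coding start and scored 112 and 38.

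The Hoxc cluster, on chromosome 15 from 102921103 to 103036852 on the plus strand, had a replicate 1 promoter peak at all 9 genes and a shared one at 3. Hoxc13, a hair follicle gene, scored 136 and 51, with the peak 232 bp from its start. Hoxc10, a lumbar patterning gene, scored 134 and 62, with the peak 165 bp from its start. The same peak, 47184 bp upstream of the Hoxc5 coding start, counts for Hoxc5, whose annotated gene begins 812 bp from it. The peak at the coding start of Hoxc5 was shared too, with scores of 86 and 23. The others had a peak in replicate 1 alone: Hoxc4 scored 65, Hoxc6 62, Hoxc8 82, Hoxc9 93, Hoxc11 56 and Hoxc12 52. Hoxc9 and Hoxc8, which pattern the thorax, were the only ones of these 6 above the list median. A replicate 2 peak also reached into the promoter window of Hoxc6, but the replicate 1 peak it overlaps lay just outside that window.

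The Hoxd cluster, on chromosome 2 from 74668310 to 74765142 on the plus strand, had no shared promoter peak at any of its 9 genes. In replicate 1 alone Hoxd11, needed with Hoxa11 for the forearm, scored 101 and Hoxd13, needed for digits, scored 95. Hoxd8, a trunk gene, scored 85, and Hoxd9, a limb and lumbar gene, scored 68. Hoxd9 had 6 promoter peaks in that list, none above the list median. Hoxd1, Hoxd3, Hoxd4, Hoxd10 and Hoxd12 had no promoter peak in either list. As background, Hoxd1 acts in pain-sensing neurons, Hoxd3 and Hoxd4 in the neck vertebrae, Hoxd10 in motor neurons of the hindlimb and Hoxd12 in the limb. A CpG-rich start was found at 7 of 9 Hoxd genes and at 8 of 10 Hoxa genes.

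By position along the body axis, anterior genes (groups 1 to 3) had a shared promoter peak at 1 of 7. Central genes (groups 4 to 8) had one at 5 of 15 and posterior genes (groups 9 to 13) at 5 of 16. Of all protein-coding genes, 57.7% had one. Replicate 1 peaks were at 3 of 7 anterior, 13 of 15 central and 14 of 16 posterior promoters, against 70.5% of all genes. The single anterior gene is Hoxa3, and with coding starts alone the anterior count is 0. Within paralogue groups the clusters differed: in group 9 all 4 genes had a replicate 1 promoter peak and Hoxa9 had the shared one, and in group 13 all 4 did and Hoxc13 had the shared one. Group 6 had replicate 1 peaks at all 3 genes and no shared one, although a replicate 2 peak also reached the Hoxc6 promoter. Neither gene of group 2 (Hoxa2, Hoxb2) had a promoter peak. Groups 4, 5 and 10 each had 2 genes with a shared peak, in different clusters. With the coding start alone, 9 of 38 Hox genes (23.7%) had a shared peak, against 49.0% of 21591 genes with such a start, and Hoxa3 and Hoxa10 dropped out.

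**Figure D2:**
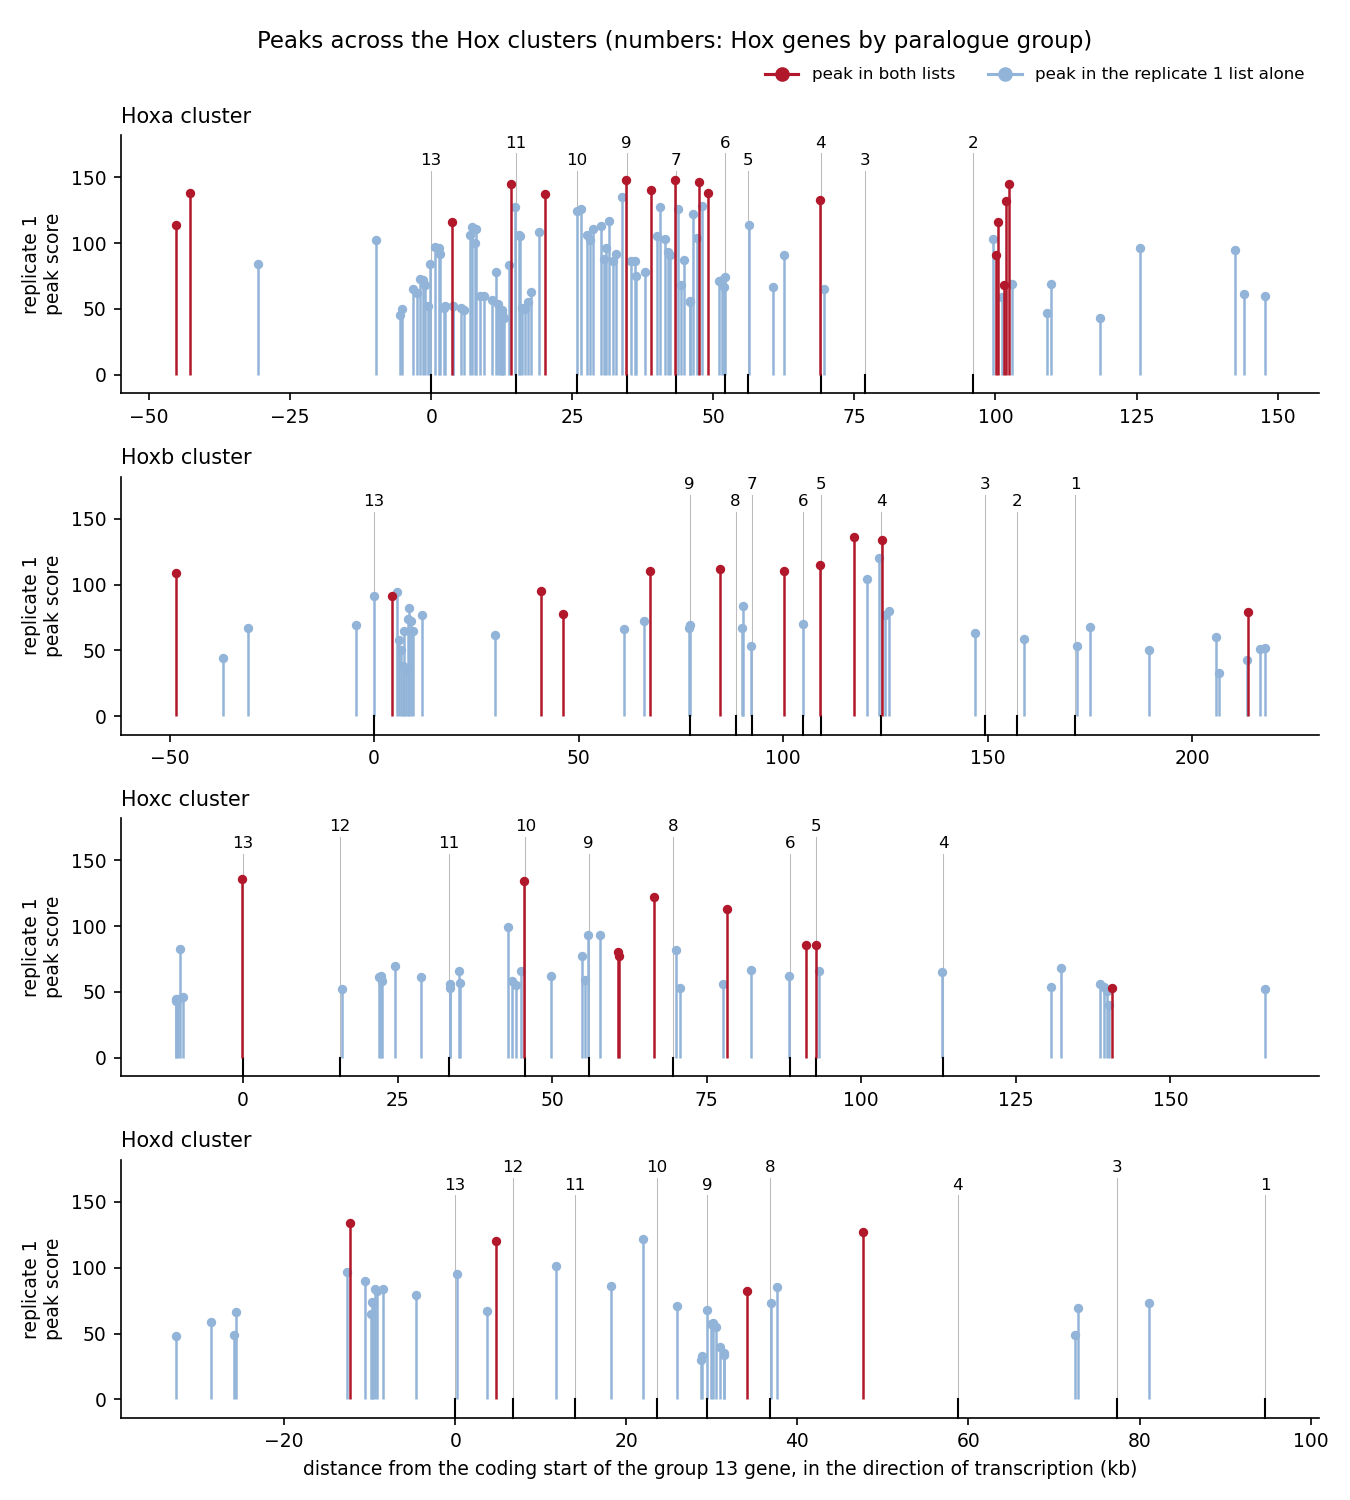
Replicate 1 peaks of each cluster window (first to last Hox gene with 50 kb on either side), with the distance in kb from the coding start of the group 13 gene on the x axis and the peak score on the y axis. Red marks shared peaks, blue peaks of replicate 1 alone, and grey lines with numbers the coding starts of the paralogue groups. The Hoxa window holds 105 peaks, of which 16 are shared, and the long stretches over the anterior genes of Hoxb and Hoxd hold no shared peak.

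With promoter peaks included, the Hoxa cluster was far denser in peaks than the other clusters in the longer list. From first to last Hox gene, replicate 1 had 78 peaks in Hoxa, 37 in Hoxb, 33 in Hoxc and 23 in Hoxd. Per 10 kb these are 7.92, 2.13, 2.85 and 2.38 peaks, against 0.869 over the genome. Of 10861 tiles of 100 kb that hold a coding gene start, 99.95% had fewer replicate 1 peaks than the Hoxa cluster has per 100 kb, and the median tile had 14. The same shares were 71.6% for Hoxb, 85.6% for Hoxc and 76.2% for Hoxd. In replicate 2 the same spans had 9, 9, 7 and 3 peaks, all of them overlapping a replicate 1 peak. Per 10 kb these are 0.914 in Hoxa, 0.517 in Hoxb, 0.605 in Hoxc and 0.310 in Hoxd, against 0.248 over the genome. In replicate 2 85.9% of the tiles had fewer peaks than Hoxa has per 100 kb, 63.0% fewer than Hoxb, 70.2% fewer than Hoxc and 46.1% fewer than Hoxd, and the median tile had 4. From first to last gene all clusters thus stood above the genome density in both lists, and Hoxa led in both. With 50 kb on either side, Hoxd in replicate 2 had 0.203 peaks per 10 kb and stood below the genome. Peak windows can overlap each other, as 10 of the 238 in the windows with 50 kb on either side do.

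Hotspots again set Hoxa apart in replicate 1. They covered 37.2% of the bases of the Hoxa cluster in replicate 1, 7.67% of Hoxb, 8.92% of Hoxc and 6.67% of Hoxd, against 3.23% of the genome. In replicate 2 they covered 1.95% of Hoxa, 1.02% of Hoxb, 1.24% of Hoxc and 0.567% of Hoxd, against 0.753% of the genome, so that Hoxd stood below the genome there. The widest, over the Hoxa7 coding start and upstream start, ran 7077 bp in replicate 1 and held 10 of its peaks, and 11 hotspots of that list were wider. In replicate 2 the widest hotspot of the windows with 50 kb on either side ran 863 bp and lay beyond Hoxa2. The Hoxa7 promoter lay in a replicate 2 hotspot of 285 bp. All of these, in both lists, were at the ceiling of the −log10 q value.

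**Figure D3:**
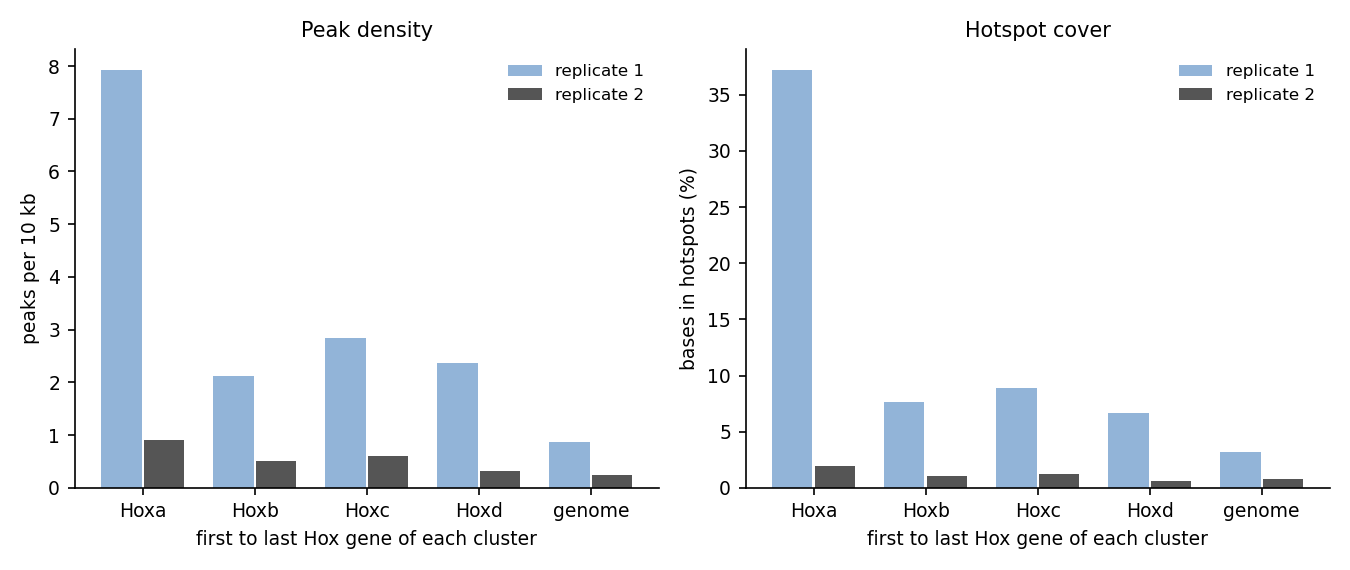
Peaks per 10 kb (left) and percent of bases in hotspots (right) from first to last Hox gene of each cluster, with the genome at the right of each panel. Light bars are replicate 1 and dark bars replicate 2. The Hoxa bars of replicate 1 reach 7.92 peaks and 37.2%, and those of replicate 2 reach 0.914 peaks and 1.95%.

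From the first to the last gene of Hoxa the peaks gathered over the central and posterior genes. In replicate 1, each peak between the first and last gene was assigned to the nearest Hox coding start, which gave 22 peaks to Hoxa11, 14 to Hoxa7, 13 to Hoxa13, 12 to Hoxa9, 6 each to Hoxa10 and Hoxa6, 3 to Hoxa5 and 2 to Hoxa4. Hoxa2 and Hoxa3 had none, and 28.7 kb over their coding starts held no replicate 1 peak. Just beyond Hoxa2, outside this count, a replicate 1 hotspot of 3851 bp held 8 replicate 1 peaks and 5 replicate 2 peaks. The anterior flank of the cluster was thus not empty. All 12 peaks nearest Hoxa9 and all 6 nearest Hoxa10 reached the list median score, against 10 of 22 nearest Hoxa11. In Hoxb the counts were highest at Hoxb13 (14), Hoxb9 (7) and Hoxb4 (6), in Hoxc at Hoxc9, Hoxc10 and Hoxc11 (6 each), and in Hoxd at Hoxd9 (9). The Hoxb13 peaks lay mostly in a run downstream of the gene, and 6 of 14 reached the list median. All 6 peaks nearest Hoxb4 did, and none of the 9 nearest Hoxd9 did.

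Stretches without shared peaks lay over the anterior genes in 3 clusters. Shared peaks are sparse over the genome too, at 0.227 per 10 kb. Whether the stretches are longer than usual was not tested. In Hoxb 49.6 kb over Hoxb1, Hoxb2 and Hoxb3 held none, in Hoxd 49.1 kb over Hoxd1, Hoxd3 and Hoxd4, and in Hoxa 29.5 kb over Hoxa2, Hoxa3 and the body of Hoxa4. In Hoxc, which has no genes of groups 1 to 3, the longest such stretch was 45.5 kb over Hoxc11, Hoxc12 and the body of Hoxc13, at the posterior end.

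The windows with 50 kb on either side held 40 shared peaks, 16 in Hoxa, 11 in Hoxb, 9 in Hoxc and 4 in Hoxd. Of these 40, 9 lay within 1 kb of a Hox coding start: 4 in Hoxa, 2 in Hoxb, 3 in Hoxc and 0 in Hoxd. By annotation 14 lay in introns, 14 between genes, 6 in exons of non-coding genes, 3 in coding exons and 3 in other exon parts of coding genes. Their median scores were 116 in replicate 1 and 39.5 in replicate 2, against 123 and 36 over all 61881 shared peaks. The Hoxa ones had medians of 137.5 and 52.5, and the Hoxc ones of 86 and 34. Strong shared peaks away from Hox coding starts included 1 that lies 3049 bp upstream of Hoxa6 (138 and 64) and 1 that lies 12239 bp from Hoxd13 (134 and 44). Between Hoxd13 and Hoxd12, 1902 bp from the Hoxd12 coding start, another scored 120 and 41.

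The count of shared peaks in the Hoxa window stood below the genome-wide rate for peaks of the same score. Of its 105 peaks 16 (15.2%) were shared, where the rate at which all replicate 1 peaks of each score were shared gives 32.5. Among Hoxa peaks that scored 120 to 150, 11 of 19 (57.9%) were shared, against 84.6% of all such peaks. Among those that scored 100 to 119, 3 of 21 (14.3%) were, against 47.8%. In Hoxb 11 of 49 were shared where the same rate gives 8.71, in Hoxc 9 of 47 where it gives 6.02, and in Hoxd 4 of 37 where it gives 6.36. Together 40 of 238 Hox peaks (16.8%) were shared, where it gives 53.5. Of the Hoxa peaks of at least 120 in replicate 1 alone, 8 in number, the highest scored 135, 882 bp from the Hoxa9 coding start. Both lists differ in length and unknown depth, and what those give to this count was not tested.

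**Figure D4:**
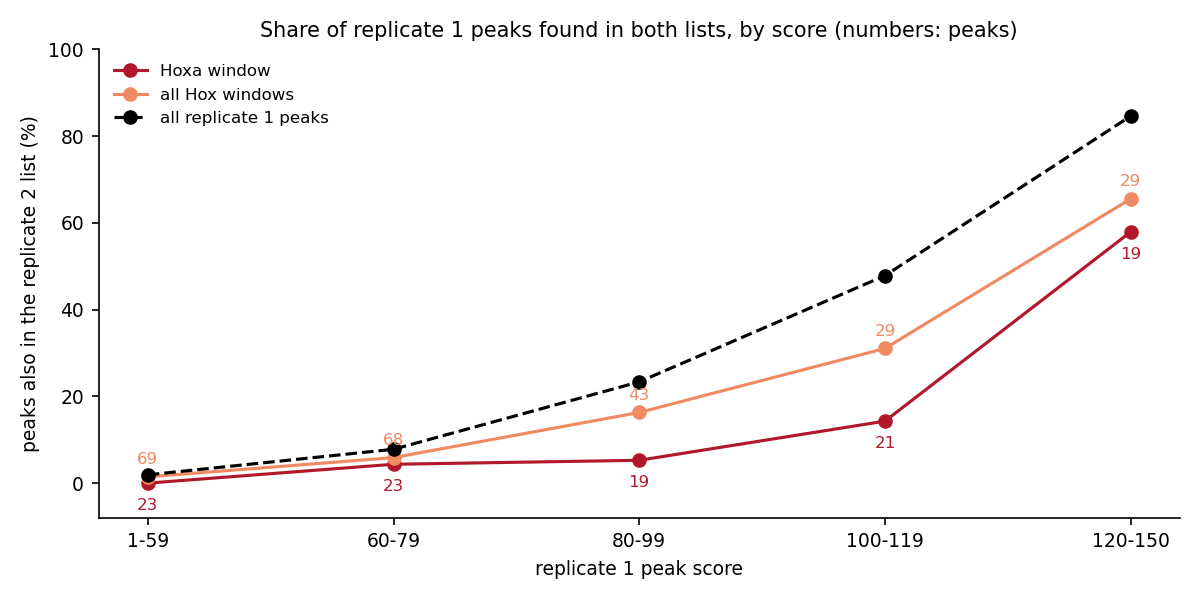
Share of replicate 1 peaks that overlap a replicate 2 peak, in percent, by replicate 1 score in 5 classes. The lines are the Hoxa window, all Hox windows and all replicate 1 peaks (dashed), with numbers of peaks beside the Hox points. In the class of 120 to 150 the Hoxa window stands at 57.9%, all Hox windows at 65.5% and all peaks at 84.6%.

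Non-coding genes of the clusters differed as well. The antisense gene Hotairm1, known in human myeloid cells, had 3 shared peaks within 1 kb of its starts, in the stretch beyond Hoxa2, the highest-ranked with scores of 145 and 60. The small RNA record Gm27867 has the same 3, and Gm27861, in the same stretch, has 2 others, the nearer with scores of 91 and 21. The Hoxa11 antisense gene Hoxa11os shares the Hoxa11 peak (145 and 54), as do the records Gm27492, Gm27817, Gm28032 and Gm27695. The gene 9530018H14Rik had a peak of 116 and 51, which lies 289 bp from one of its starts and 3631 bp from the Hoxa13 coding start. In Hoxb, Gm53 had a peak of 110 and 40 and Gm27898 one of 91 and 28, and in Hoxd the start of Hoxd3os1 had the peak of 127 and 58 printed above. Hottip, which in human cells acts on posterior HOXA genes, had 4 replicate 1 peaks there and no shared one. Hotair in Hoxc and Haglr in Hoxd had no peak of either list within 1 kb of a start. The homeobox gene Evx2, beside Hoxd13, had 6 replicate 1 peaks and no shared one.

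Of the 6 microRNA genes, 3 had a replicate 1 peak within 1 kb. Mir196b, between Hoxa9 and Hoxa10, had 4 replicate 1 peaks within 1 kb, 1 of them over the mature sequence with a score of 88. Neither gene of miR-196a, which has the same seed, had a peak within 1 kb, with the nearest 3382 bp from Mir196a-1 in Hoxb and 2340 bp from Mir196a-2 in Hoxc. Mir10a, beside Hoxb4, had 1 peak in replicate 1, which scored 120 and lay 548 bp away. Mir10b, beside Hoxd4, had its nearest peak 10049 bp away, although both share the seed ACCCUGU. Mir615 had 1 peak, of score 66. No microRNA gene of the clusters had a shared peak within 1 kb.

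Of 4 lists of genes that work with or on Hox genes, 3 had a shared promoter peak at most members, and the upstream factors at 4 of 8. The DNA-binding cofactors of HOX proteins (Meis, Pbx and Pknox genes) had a shared promoter peak at 7 of 9, with the highest ranks at Pknox1 (149 and 98), Pbx3 (149 and 92), Pbx4 (148 and 84) and Meis1 (146 and 73). Meis2 and Pknox2 had a peak in replicate 1 alone. All 18 activating regulators, the MLL complex, its fusion partners and related enzymes, had one, led by Mllt1 (148 and 103), Dot1l (149 and 97), Kdm6a (148 and 97) and Kat7 (150 and 92). All 16 Polycomb genes had one too, led by Jarid2 (150 and 104), Suz12 (150 and 103), Cbx8 (149 and 103) and Ezh2 (149 and 97). Of 8 upstream factors, Yy1 (150 and 94), Ctcf (149 and 88), Rarg (145 and 89) and Rara (145 and 68) had one, and Cdx1 and Rarb had no promoter peak. These shares stand beside the 57.7% of all genes and the 87.8% of all genes with a CpG-rich start. How many of the listed genes have such a start is not given here, and the shares were not tested.

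Other homeobox genes of the same ANTP class, also developmental, gave shares near those of the Hox genes. Of 33, 10 (30.3%) had a shared promoter peak, 18 a peak in replicate 1 alone and 5 none, against 11, 19 and 8 of the 38 Hox genes. The highest-ranked were Hlx (146 and 72) and Hhex (145 and 69), both used in blood development, then Gbx2 (139 and 66) and Dlx4 (139 and 65). Barx1, Dlx5, Mnx1 and Nkx2-1 were among those without a promoter peak.

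**Figure D5:**
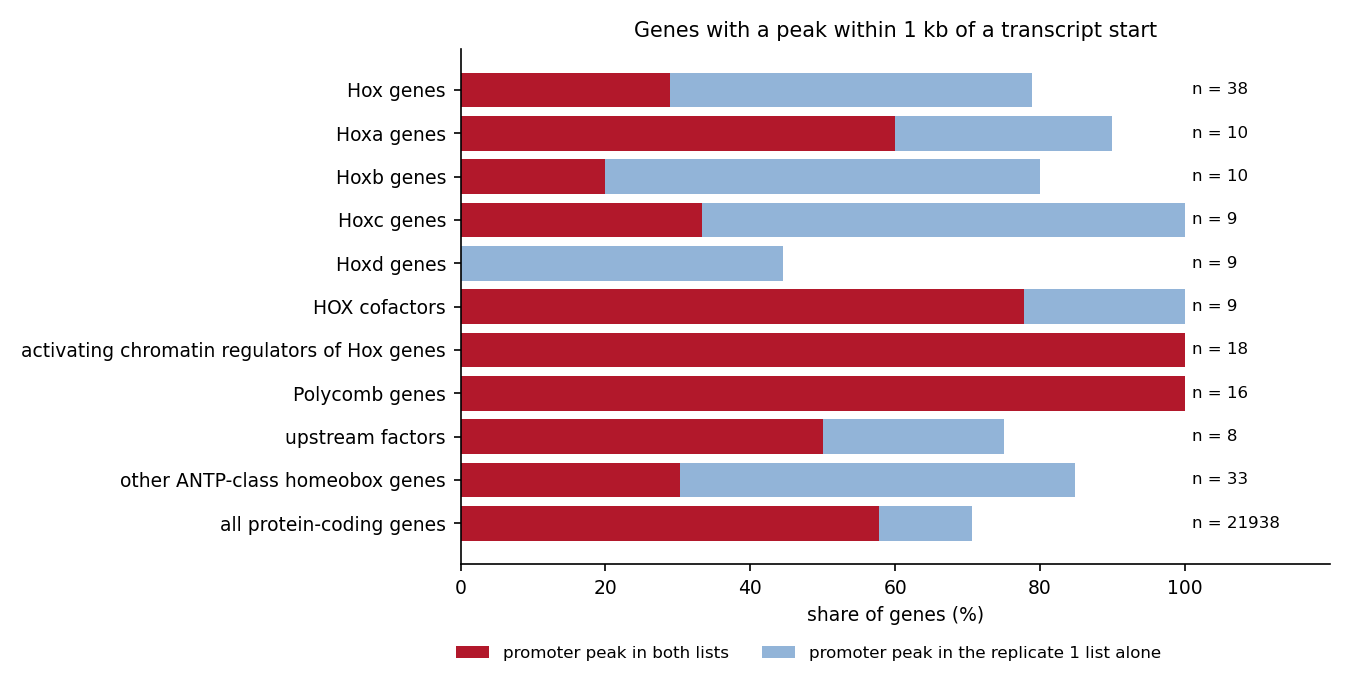
Percent of genes with a promoter peak in both lists (red) or in the replicate 1 list alone (blue), for the 38 Hox genes, each cluster, 5 gene lists and all 21938 protein-coding genes. Hox genes reach 28.9% in red and 78.9% in all, and all genes 57.7% and 70.5%.

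Exact motif matches were counted on both strands over the whole 150 bp of each peak. The full CTCF motif was in 0 of 40 shared peaks of the Hox windows and 1 of 198 replicate 1 peaks alone, against 7.55% of all shared peaks and 1.19% of all others. Its 3′ part (GGNGGCGCT, chosen after the strongest peaks had been read) was in 3 of 40 shared Hox peaks (7.50%), against 3.39% of all shared peaks. These 3 are the Hoxc10 promoter peak and the Hoxc and Hoxd peaks printed above. The C/EBP motif was in 3 of 40 shared Hox peaks (7.50%), against 10.5% of all shared peaks: those at Hoxa7, at Hoxb5 and near Hoxc8. PU.1-type ETS (GAGGAAGT) was in 1, against 6.11% of all shared peaks, and RUNX (TGTGGTT) in 0, against 6.15%. HOX9/PBX (TGATTTAT) was in 1 shared Hox peak and in 5 of 198 in replicate 1 alone (2.53%), against 0.618% and 0.933% of all peaks, and 4 of these 5 lay in the Hoxb window. MEIS (TGACAGNT) was in 1, near Hoxa13, against 2.77%. A match is a description of letters in these windows and not of binding.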

How the data were processed

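DNase-seq peak and hotspot lists of AML cells, 1 of each per biological replicate, were used as deposited. Per the deposited text files both libraries of a replicate share an mm10 alignment. For caller, version and depth, nothing is given in the sources used here. The authors' peak score in the deposited lists is a whole number of unstated scaling, and the deposited hotspots hold a −log10 q-value. No count, interval or test across replicates could be made from them, so results are descriptions set beside all genes or peaks.

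Repeated peaks (48 in replicate 1, 5 in replicate 2) were kept once. Overlaps, promoters (GENCODE M21), CpG content, motifs and nearest genes were computed with Python 3.11.15, pandas 2.3.3, numpy 2.4.6 and pysam 0.24.0, and figures with matplotlib 3.10.9. The functions were tested on simulated data. Percentile ranks were taken within each list and averaged to choose the peak of highest mean rank. Cluster windows ran 50 kb beyond the first and last Hox gene described.

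Named genes were all 38 members, every other gene with a shared promoter peak in a window, and of each list the 4 of highest mean promoter rank and up to 4, in alphabetical order, without a promoter peak. MicroRNA genes, other non-coding genes and Evx2 were added after their values were seen. Members and lists were chosen with earlier results of these data known. Alternatives covered promoter window, start, overlap, score, list length, flank and each list alone. Values of 1 marker list are not reported here.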

Additional observations from a re-analysis of the deposited data

How the results depend on the processing

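Each result rests on 1 pooled list per replicate of unknown depth, so no replicate error or test could be had, and the shared counts are limited by the shorter list. No paired analysis was possible because there are no groups to compare. With either list alone, Hox genes with a promoter peak numbered 12 to 30 in place of 11, anterior genes 1 to 3, central genes 6 to 13 and posterior genes 5 to 14. Window peaks in place of shared ones then numbered 16 to 105 in Hoxa, 11 to 49 in Hoxb, 9 to 47 in Hoxc and 4 to 37 in Hoxd. The anterior count was 0 with coding starts alone, and the central count 8 with a promoter of 2.5 kb. Shared peaks numbered 9 in Hoxa without the flanks, and 10 in Hoxd with 100 kb on either side. With the replicate 1 list reduced to the length of the other they numbered 7 in Hoxb and 4 in Hoxc. Replicate 1 peaks at or above the median score numbered 63, 21, 14 and 16 in Hoxa, Hoxb, Hoxc and Hoxd. Without the flanks Hoxd had 23 replicate 1 peaks of any score. The CTCF 3′ part gave 3 shared peaks and 4 of replicate 1 alone. Of the other 61 values under an alternative, counts stayed within 1.5 times the value given, and hotspot cover moved by less than the SD between both lists. That SD is large beside the replicate 2 cover, so for replicate 2 this limit could hardly be passed. Cover of the window still moved by over 1.5 times at 3 places. It was 37.2% in Hoxa in replicate 1 without the flanks, against 24.2% with them. With hotspots of q 0.001 or lower, it was 4.32% in Hoxc in replicate 1, against 6.67%, and 0.255% in Hoxd in replicate 2, against 0.394%.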
